A study of Gallus gallus with 4 samples.

Results

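Intracellular calcium-binding genes are the genes that the deposited gene ontology (GO) tables place both in calcium ion binding and in intracellular part. Genes that the tables also place in any of 5 other terms, namely cell adhesion, extracellular matrix, immune response, extracellular space or transmembrane signaling receptor activity, were left out. The troponin gene TNNC1 and the calcium pump gene ATP2A3 were excluded by name, although only TNNC1 met the annotation. A total of 139 genes met this definition, of the 17934 genes in the population of the GO analysis. The rule uses annotation and these names, and no expression value. The terms themselves come from tables of differentially expressed genes, and the rule was written with earlier results of these data known. Calcium ion binding held 489 genes and intracellular part held 6252, and 175 genes were in both before the exclusions.

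Ovaries of Ningdu Yellow chickens, a Chinese breed kept here as a sub-breed with early and a sub-breed with late sexual maturity, were compared between 2 ages within each sub-breed. In the early sub-breed, P-F-O1 was from hens of 32 days before laying and P-F-O2 from laying hens of 103 days. In the late sub-breed, L-F-O1 was from hens of 32 days before laying and L-F-O2 from hens of 153 days, whose laying status the sources state in different ways. All hens were reared in cages on the same diet, and each of the 4 libraries was 1 pool of ovary RNA from several hens. No group had a second library, so no call had a replicate library behind it and no p-value was calculated. Fewer cells of a type in an ovary and less RNA per cell cannot be told apart in such pools.

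P-F-O1 against P-F-O2 is called the early comparison below, and L-F-O1 against L-F-O2 the late comparison. The tables list, for each GO term, the genes that the authors called differentially expressed between the younger and the older library of a sub-breed. They give neither a level per library nor the direction of a difference, and the depth behind each call is unknown from them. By the study's read counts the older library was the deeper one in each sub-breed, so age and depth cannot be told apart. A gene is therefore described below as called or not called in each comparison. A gene that was not called may have changed too little, or may have been too weakly expressed to be judged.

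Calcium ions act as a messenger inside cells. In a resting cell their concentration in the cytosol is kept low, and they are stored in the endoplasmic reticulum and taken up by mitochondria. When calcium enters the cytosol, it binds proteins that carry EF-hand, C2 or annexin domains, which then change shape and act on enzymes, the cytoskeleton or membranes. In the ovary, calcium signals accompany hormone action in follicle cells, contraction of the muscle-like cells of the follicle wall and maturation and activation of the oocyte. Calcium-binding proteins of the endoplasmic reticulum also assist the folding of secreted proteins.

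In the early comparison, 49 of the 139 genes were called (35.3%), against 28.1% of all genes in the GO population. In the late comparison, 42 were called (30.2%), against 23.2% of all genes. The members' share was thus above the background share in both comparisons, by 7.17 and 7.0 percentage points. The study detected fewer genes in the 4 libraries than the GO population holds, so part of the population could not be called. How many members were detected is unknown from these lists. How much of the difference goes with detection was not tested. The sign of this difference depended on the genes used for reference. Against all genes of intracellular part, of which 23.9% and 18.1% were called, the members stood higher. Against all genes of calcium ion binding, of which 40.7% and 37.2% were called, they stood lower.

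The sets most like the members share only one of their annotations. Among 5783 intracellular genes that were not annotated to calcium ion binding and not in the 5 excluding terms, 22.6% were called in the early and 16.7% in the late comparison. Among 186 calcium-binding genes outside intracellular part and outside the same 5 terms, 39.8% and 38.2% were called. The members lay between these sets in each comparison. They were nearer to the calcium-binding set than to the intracellular set in both. The study names calcium ion binding among the terms enriched in its called genes, so a raised share here is not an independent result. These shares describe lists of genes in single libraries, and no test between the sets was made.

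**Figure D1:**
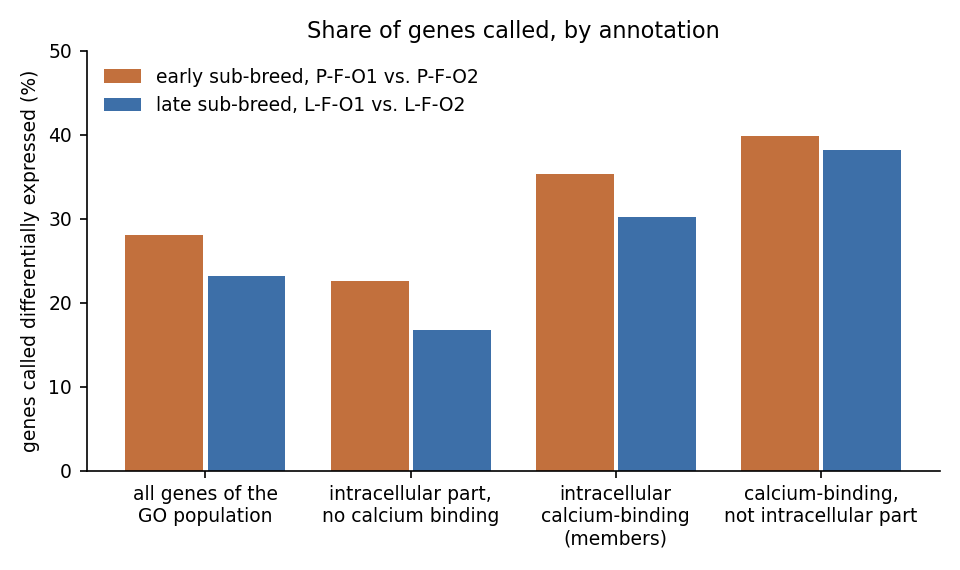
Share of genes called differentially expressed (%, y axis) in the early (orange) and late (blue) comparison, for all 17934 genes of the GO population, 5783 intracellular genes without calcium binding, the 139 members and 186 calcium-binding genes outside intracellular part. The members' bars, at 35.3% and 30.2%, stand between those of the intracellular set and those of the calcium-binding set.

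Of the 139 genes, 37 were called in both comparisons (26.6%), against 17.8% of the 11314 genes under terms that both tables list. The share was 27.4% among the calcium-binding genes outside intracellular part, close to that of the members, and 13.4% among the intracellular genes without calcium binding. A further 12 members were called in the early comparison alone, 5 in the late comparison alone, and 85 in neither. The 37 shared genes were 75.5% of the members called in the early comparison and 88.1% of those called in the late comparison. For all genes under terms of both tables, 63.8% of the early calls and 79.2% of the late calls were shared. Shared calls were 68.9% and 71.8% for the calcium-binding set, and 59.4% and 80.5% for the intracellular set. The comparisons have no library in common. A shared call says that the gene was on both lists, and the tables do not say whether it changed in the same direction.

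Of the members, 20 have a gene symbol, which the study's list of differentially expressed genes of the early comparison pairs with the identifier. All 20 were thus called in the early comparison by the way they were named, and nothing can be read from that share. In the late comparison, 16 of the 20 were called as well, and 4 were not. Of all members called in the early comparison, 75.5% were also called in the late. A member not called in the early comparison could not be named, so the counts by role below cover only genes with an early call. Of the 49 members called there, 29 also had no symbol, and only a part of the study's list was held here. No named member has an identifier beyond that of CAPN2 (ENSGALG00000009360). The counts by role therefore cover only a part of the early calls, cut by order of identifier. The named genes include enzymes, sensors, contractile proteins and proteins of cilia, and they are described here by role.

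Both named calpains were called in both comparisons. CAPN2 (ENSGALG00000009360) encodes the large subunit of a widely expressed cytosolic protease that calcium activates, and CAPN3 (ENSGALG00000009050) encodes the calpain typical of skeletal muscle in mammals. The tables place both in cytoplasm, catalytic activity and developmental process. CAPN2 was also placed in nucleus, whereas CAPN3 was placed in plasma membrane. The genes are related in sequence and the reads were short, and whether reads were shared between them was not tested.

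Both named enzymes of lipid signaling were also called in both comparisons. PLCD1 (ENSGALG00000005805) encodes a phospholipase C, which splits a membrane phosphoinositide into inositol trisphosphate and diacylglycerol and so releases stored calcium. DGKG (ENSGALG00000005721) encodes a diacylglycerol kinase with EF-hands, which turns diacylglycerol into phosphatidic acid and so ends that signal. The enzymes thus stand at consecutive steps of the same pathway. PLCD1 was in developmental process and DGKG in plasma membrane.

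Contractile and actin-binding proteins made up 4 of the named members, of which 3 were called in both comparisons. MYL3 (ENSGALG00000005448) and MYL4 (ENSGALG00000000585), which encode essential light chains of muscle myosin, were called in both. MYL2 (ENSGALG00000004582), which encodes a regulatory light chain of heart and slow muscle myosin, was called in the early comparison alone. The tables place these 3 genes in cytoplasmic part and in single-multicellular organism process. Myosin light chains are also related in sequence, and sharing of reads among their genes was not tested. PLS1 (ENSGALG00000002647), which encodes the actin-bundling protein plastin-1 of microvilli, was called in both comparisons and was placed in cytoplasm.

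EF-hand sensors numbered 3 among the named members. S100A11 (ENSGALG00000009163), a small protein of the S100 family placed here in nucleus and cytoplasm, was called in both comparisons. NECAB2 (ENSGALG00000003309), an EF-hand protein best known from mammalian neurons, was called in both as well. CHP1 (ENSGALG00000008569), which binds and supports sodium-proton exchangers of the cell surface, was called in the early comparison alone.

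CALR3 (ENSGALG00000003914) and FKBP7 (ENSGALG00000009149) act in the endoplasmic reticulum and were called in both comparisons. CALR3 encodes a calreticulin-like chaperone that in mammals is found in testis, and FKBP7 encodes a prolyl isomerase with EF-hands. The tables place both in the same 13 listed terms, among them cellular protein metabolic process.

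Of the other named members, 5 were called in both comparisons. DNAH7 (ENSGALG00000007841), a heavy chain of the dynein motor of motile cilia, and SNTN (ENSGALG00000007288), which encodes sentan of the tips of cilia, are genes of ciliated cells. PKD2L1 (ENSGALG00000005766) encodes a cation channel that calcium regulates. PTGS1 (ENSGALG00000001314) encodes a cyclooxygenase, which makes the precursor of prostaglandins, and ITGB1BP2 (ENSGALG00000005493) encodes melusin, a protein of striated muscle that binds the tail of an integrin. For PTGS1 the study reports that qPCR on the sequenced RNA matched the sequencing within each comparison, in fold change and direction. In another breed, Baier Yellow, the study found no difference in PTGS1 between pre-laying and laying hens. Those hens were all of the same age, so that contrast is unlike the comparisons of ages made here. The last 2 named members were called in the early comparison alone. They are TGM3 (ENSGALG00000004804), a transglutaminase that crosslinks proteins, and USP32 (ENSGALG00000005350), an EF-hand enzyme that removes ubiquitin.

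**Figure D2:**
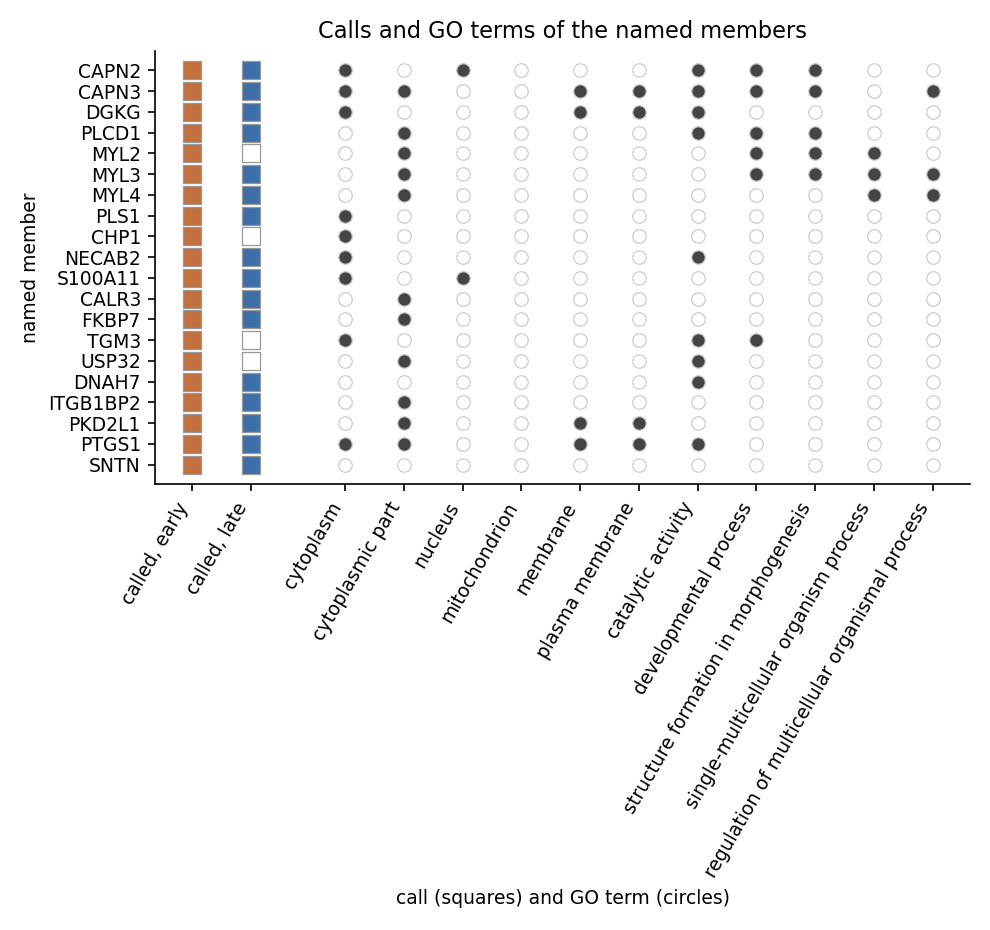
Calls (squares, filled where the gene was called, orange for the early and blue for the late comparison) and 11 GO terms (circles, filled where the table places the gene in the term) of the 20 named members (y axis), ordered by role. Open squares mark the 4 genes that were not called in the late comparison, MYL2, CHP1, TGM3 and USP32. No named member is in mitochondrion, where 13 of the 14 members were called in neither comparison and so could not be named. The other, ENSGALG00000010379, was called in both comparisons but had no symbol here.

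The other 119 members have an identifier but no symbol here, and 21 of them were called in both comparisons. ENSGALG00000001050, the first of these by identifier, was placed in cytoplasmic part and protein complex. ENSGALG00000002331, the next, was placed in cytoplasm. Without a symbol, 8 members were called in the early comparison alone, such as ENSGALG00000010186 of plasma membrane and ENSGALG00000010858 of developmental process.

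The 5 members that were called in the late comparison alone could have no symbol, because symbols came from the list of the early comparison. ENSGALG00000000479 was placed in protein modification process, and ENSGALG00000002907 in protein complex. The remaining 3 were named here after their calls had been seen. ENSGALG00000003282 was placed in nucleus and in regulation of T cell activation, ENSGALG00000008320 in endoplasmic reticulum part and ubiquitin-dependent protein catabolic process, and ENSGALG00000011433 in peptidase inhibitor activity.

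The share of members called varied with their place in the cell. Each member was given 1 place from its GO terms, first mitochondrion, then nucleus, then another membrane-bounded organelle, then an organelle without membrane, then a part of an organelle with no term for the organelle itself, and otherwise neither an organelle nor a part of one. Of 14 mitochondrial members, 1 was called in each comparison (7.14%), and it was the same gene, ENSGALG00000010379, singled out after its call had been seen. It is placed in nucleus, plasma membrane and extracellular matrix part as well as in mitochondrion. None of the 10 members in mitochondrial membrane was called, against 16.1% and 8.78% of the 205 genes of that term. Among 10 genes, shares of that size would give few calls, so the lack of calls shows little. The mitochondrial genes without calcium binding also had low shares, 15.9% in the early comparison and 10.9% in the late, of 880 genes.

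Members placed in an organelle part alone had 7 calls among 14 genes in the early comparison and 8 in the late comparison (57.1%). They include the myosin light chain genes MYL3 and MYL4. The corresponding 670 intracellular genes without calcium binding stood at 21.2% and 15.5%. Of 24 members in neither an organelle nor a part of one, 11 and 8 were called (45.8% and 33.3%), against 22.5% and 15.0% of 742 genes. The named members of this place are CAPN3, PLCD1, DGKG, PLS1 and NECAB2, called in both comparisons, and CHP1 and TGM3, called in the early comparison alone. Among members of membrane-bounded organelles other than nucleus and mitochondrion, 18 of 43 were called in the early comparison (41.9%) and 15 in the late comparison (34.9%), against 24.7% and 18.5% of the corresponding 753 genes. Of the 139 members, these 3 places held 14, 24 and 43, of which 6, 7 and 14 were called in both comparisons. The place for organelle parts alone was set up after the calls had been seen.

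In the nucleus the members did not stand out in the early comparison. Of 29 nuclear members, 6 were called there (20.7%), against 22.7% of 2258 nuclear genes without calcium binding. In the late comparison, 7 were called (24.1%), against 17.6%. The 15 members of organelles without membrane had 6 calls in the early comparison (40.0%, against 32.9% of 480 genes) and 3 in the late comparison, where 24.2% of the 480 genes were called and the members stood below.

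**Figure D3:**
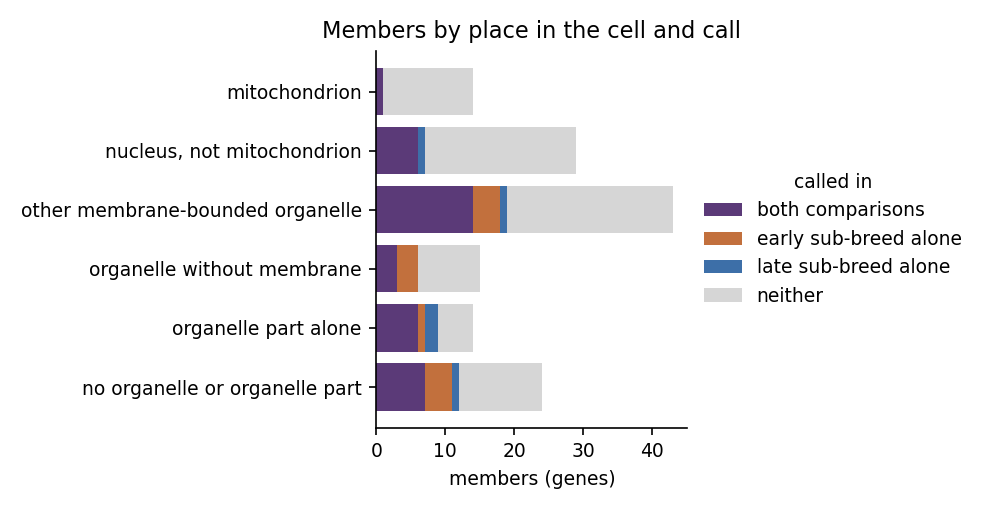
Number of members (x axis) by place in the cell (y axis), coloured by the comparison in which they were called. Of the 14 mitochondrial members 13 were called in neither comparison, as were 722 of the 880 mitochondrial genes without calcium binding. Of the 14 members placed in an organelle part alone, 5 were called in neither. That place was set up after the calls had been seen.

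Of 52 members in membrane, 15 were called in the early comparison and 13 in the late (28.8% and 25.0%), against 32.4% and 26.5% of all 2736 genes of the term. The members' shares were thus close to those of the term and slightly below them in both comparisons, whereas the term stood above the GO population. The share of the term was taken without the rule's exclusions, so the sets differ in more than calcium binding. Of the 87 members outside membrane, 34 and 29 were called (39.1% and 33.3%). The 24 members in plasma membrane had 10 and 8 calls (41.7% and 33.3%), against 36.0% and 29.7% of its 930 genes. Catalytic activity went with nearly equal shares, since 35.4% of the 48 enzymes and 35.2% of the other 91 members were called in the early comparison.

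The members were then set against all genes of each GO term that both tables list and that holds at least 10 members. In 34 of these 47 terms the share of members called in the early comparison was above the share of all genes of the term, and in the late comparison it was above in 35. Many of these terms share genes, so their number is not a number of separate findings. Several were near ties, such as purine nucleoside binding in the late comparison, with 2 of 11 members called (18.2%, against 17.5%). The widest gap above a term was in anatomical structure formation involved in morphogenesis, with 9 of 13 members called in the early comparison (69.2%, against 34.9% of its 679 genes). In the late comparison 7 of the 13 were called (53.8%, against 32.4%). The 7 genes called in both include CAPN2, CAPN3, MYL3 and PLCD1, and MYL2 is among the other 2 of the early comparison.

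Developmental process as a whole held 32 members, of which 14 were called in the early comparison (43.8%, against 33.4% of its genes). In the late comparison 9 were called (28.1%, against 30.3%), so the members stood above the term in one comparison and close to it in the other. Of these members, 6 were called in the early comparison alone, among them MYL2 and TGM3, and 1 in the late comparison alone, the nuclear gene ENSGALG00000003282. Whether the sub-breeds differ in this was not tested.

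In other terms the members stood below. Receptor binding held 10 members, of which 1 was called in the early comparison and none in the late comparison, against 37.6% and 35.1% of all its genes. Of 11 members with signal transducer activity, 2 and 3 were called, against 37.2% and 32.6%. With 10 or 11 members, these shares rest on few calls. By the rule the members also lack genes of extracellular space and transmembrane signaling receptor activity, which the shares of all genes keep. How much of each gap comes from that exclusion was not tested.

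**Figure D4:**
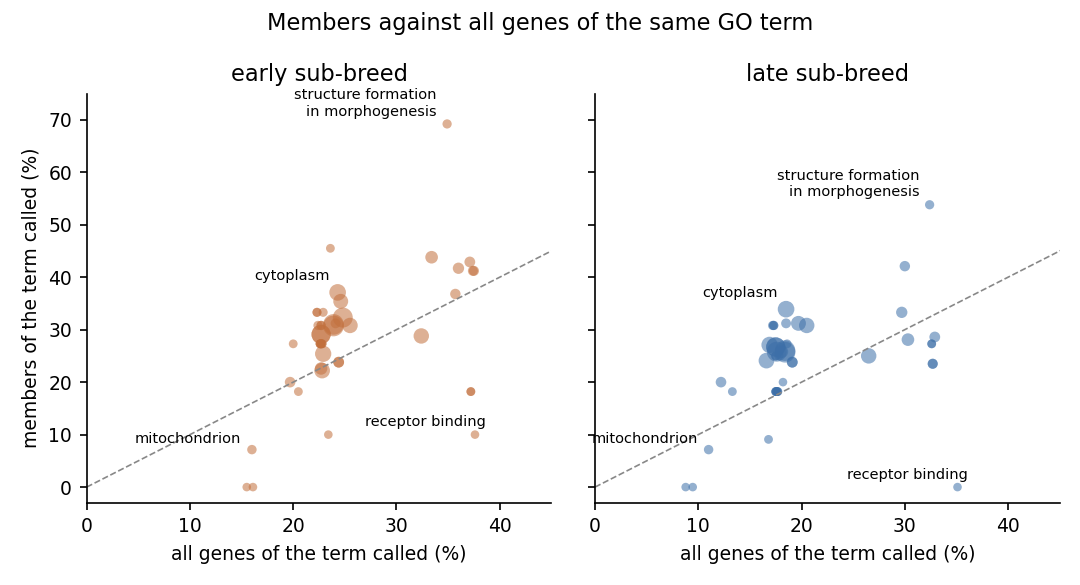
Share of members called (y axis, %) against the share of all genes called (x axis, %) for 47 GO terms with at least 10 members, in the early (left) and late (right) comparison; point size grows with the number of members, and the dashed line marks equal shares. Most points lie above the line, some of them only narrowly. Structure formation in morphogenesis is highest at 69.2% and 53.8%, and mitochondrion and receptor binding lie below the line.

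The deposited pathway tables (Kyoto Encyclopedia of Genes and Genomes, KEGG) name few of the called genes, members or not. The 69 pathways of the early comparison name 156 called genes, where 5037 genes of the GO population were called. The 68 of the late comparison name 132, where 4163 were called. Among the genes named are 2 of the 49 members called in the early comparison and 2 of the 42 called in the late comparison. ENSGALG00000001050 was named in focal adhesion, tight junction, vascular smooth muscle contraction and regulation of actin cytoskeleton in both comparisons. PTGS1 was named in metabolic pathways in both. Calcium signaling pathway had 8 and 10 called genes of 15 in its background, and none of them was a member. The only one of those in calcium ion binding was TNNC1, which the rule leaves out by name and which was called in both comparisons.

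The name intracellular holds for these genes by annotation only. Of the 139 members, 6 were also in extracellular region or extracellular region part, since the rule excludes extracellular space and extracellular matrix but not these terms. Of these 6, 4 were called in both comparisons, against 26.6% of all members and 17.8% of genes under terms of both tables. The number of listed terms per gene had a median of 15 for members called in both comparisons and of 17 for members called in neither.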

How the data were processed

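Ovary RNA pools of 4 groups were sequenced, with 1 library per group. According to the methods and the submitters' processing notes, the authors trimmed the short paired-end reads (SeqPrep, Sickle), aligned them to galGal4 with TopHat, calculated expression per gene and used Cuffdiff to compare the younger with the older library. A gene counted as differentially expressed by a fold change with an expression minimum, or by a p-value. Versions are not given in the sources used here. Because either criterion sufficed, a call can rest on a fold change between single libraries. The deposited GO tables (Goatools) and KEGG tables (KOBAS) hold lists of gene identifiers and numbers of genes, with p-values of the authors' enrichment tests, which were not used.

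The GO tables list 166 terms for the early and 182 for the late sub-breed, 125 of them shared. Gene lists broken across lines in the late table were rejoined. At 44 places 1 character was missing, and only 1 intact identifier of the tables fitted each of them; none was a member. The reading step was tested on simulated data. All calls of members stand in the lists of calcium ion binding, which both tables hold, so none is missing. Background shares are study genes over population genes (5037 and 4163 of 17934).

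Symbols came from the part of the study's gene list held here (1947 identifiers of the early sub-breed), which covers 23 members, 20 with a symbol; every member with a symbol was named, and 2 others per class of call at most, by order of identifier. Beyond this rule, ENSGALG00000010379 and the other 3 members called in the late sub-breed alone were named after their calls were seen. Organelle parts were made a place of their own after the calls were seen. The RefSeq table of GRCg7b matched 0 member identifiers and 18 of the 20 symbols. No coordinates were used. Roles were assigned by hand from the symbols. The members and lists were chosen with earlier results of these data known. Counts were made in Python 3.11.15 and drawn with matplotlib 3.10.9. Alternatives changed the exclusions, the intracellular term, the source of membership and calls, and the reference genes.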

Additional observations from a re-analysis of the deposited data

How the results depend on the processing

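The share of members called did not leave its 95% Wilson interval under any alternative run. This is a weak check. Reading membership in both tables, leaving out broken identifiers or taking calls from calcium ion binding alone could not change the counts, because the lists hold the same members and calls. The other alternatives used a part of the members or added the genes left out. It ranged from 31.0% to 39.4% in the early comparison, from 26.0% to 33.9% in the late comparison and from 24.0% to 29.0% for calls in both comparisons. The lowest values came with intracellular organelle in place of intracellular part. Leaving out the members in membrane, in mitochondrion or with a myosin light chain symbol was added after the data were seen, the first because the planned membrane terms are not listed. The difference from the reference share turned with the reference. It was 7.17 and 7.0 percentage points against all genes, 11.3 and 12.2 against intracellular part, and -5.44 and -7.0 against calcium ion binding, a set that contains the members. No paired analysis was possible because each group has 1 library. The effect of depth on the calls could not be examined from lists of genes, and intervals cover counts of genes, not hens.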

Other observations

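The 36 intracellular calcium-binding genes that the rule leaves out had 20 calls in the early comparison (55.6%) and 13 in the late comparison (36.1%), with 12 called in both and 1 in the late comparison alone. Of all genes in the GO population, 28.1% and 23.2% were called. Of all genes of calcium ion binding, which contains these 36, the shares were 40.7% and 37.2%. Of the 17 in cell adhesion, 9 were called in each comparison, the same 9 in both. Those in immune response had 3 calls among 4 genes in the early comparison and 1 in the late comparison. A difference between the comparisons was not tested for so few genes.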
